A study of Mus musculus with 18 samples.

Results

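Genes of the response to low oxygen were followed through RNA sequencing of sorted mouse lung neutrophils. They are Hif1a, Egln1, Egln3, Vegfa, Adm, Bnip3 and Ndrg1, taken by gene name as 7 of the 40481 gene IDs of the count table, and all 7 were among the 16575 genes with enough reads to be tested. Hypoxia-inducible factor 1 (HIF-1) pairs the oxygen-regulated alpha subunit encoded by Hif1a with the stable beta subunit encoded by Arnt. When oxygen is ample, prolyl hydroxylases such as those encoded by Egln1 and Egln3 mark the alpha subunit for ubiquitination by the von Hippel-Lindau complex and breakdown. When oxygen is low the alpha subunit persists, enters the nucleus and binds short DNA elements beside genes for glycolysis, blood vessel growth and mitochondrial turnover, and Egln1 and Egln3 are themselves among the genes it raises. Inflammatory signals can raise HIF-1 in myeloid cells too, and in neutrophils the factor is known for prolonging survival at low oxygen. Control of the alpha subunit is mostly at the level of the protein, which was not measured.

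The libraries came from C57BL/6 mice that were wild type (WT) or labelled CGD/CYBB KO. The disrupted gene, Cybb, supplies the catalytic gp91phox chain of the NADPH oxidase with which phagocytes make superoxide, and people who lack it have chronic granulomatous disease (CGD). Live CD45+ CD11b+ Ly6G+ cells were sorted from digested lungs by CD101, a surface protein gained as neutrophils mature, into cells the labels call mature (CD101pos) and immature (CD101neg). For each genotype there were 3 groups of 3 libraries, which makes 6 groups: CD101pos cells without treatment (naive), and CD101pos and CD101neg cells after zymosan. Zymosan is yeast cell wall material, of which 20 µg had been instilled into the nose 24 hours before collection. The zymosan groups came from females aged 13 weeks and the naive groups from males aged 12 weeks, so the effect of zymosan cannot be told apart from that of sex and age. The labels name no cell type to which the knockout is restricted. Nothing in the sources used here says that the replicates of a group came from separate animals, so p-values measure the spread between these libraries.

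Libraries held 33.7 to 67.9 M reads in genes, and replicates of a group correlated across genes at 0.958 to 0.981. Cybb fell from 263 ± 10.1 CPM (read counts scaled to library size with TMM factors; SD, n = 3) in WT to 45.1 ± 4.66 in CGD zymosan CD101neg cells, and it was lower in CGD in the other two settings as well. Cd101 itself stood at 403 ± 70.3 CPM in WT but only 104 ± 7.96 CPM in CGD CD101pos cells after zymosan, so cells of the same gate differed in the transcript of the gating protein. The 9 neutrophil identity genes summed to between 19465 CPM (WT zymosan CD101neg replicate 1) and 110655 CPM (a CGD zymosan CD101neg library). Most of the sum was S100a8, S100a9 and Retnlg, with means of 32108, 24113 and 10004 CPM of 73751 CPM in CGD zymosan CD101neg cells. The sum thus mainly follows these transcripts and is not a measure of neutrophil content. Other libraries stood apart from their group in this sum. CGD naive replicate 3 had 73863 CPM against 28126 and 32786 CPM in the other two, and WT zymosan replicate 2 had 86400 CPM in CD101pos and 79903 CPM in CD101neg cells.

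Sequence before the transcription start is shown for the members that rose or fell with genotype and had a window. HIF-1 binds elements with the core ACGTG or GCGTG, and these letters were searched on both strands of the 250 bases before each start annotated by RefSeq (GRCm38.p6), with overlapping matches merged. Windows were found for 6 of the 7 members, and for Vegfa there were 2. Capitals mark each match.
Egln3 at chr12:54203875-54204124 (reverse strand): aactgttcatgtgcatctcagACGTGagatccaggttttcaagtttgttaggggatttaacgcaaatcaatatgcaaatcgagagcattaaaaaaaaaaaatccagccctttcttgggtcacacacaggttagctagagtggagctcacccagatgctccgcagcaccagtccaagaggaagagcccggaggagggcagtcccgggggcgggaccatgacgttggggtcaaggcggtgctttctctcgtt
Adm at chr7:110627407-110627656 (forward strand): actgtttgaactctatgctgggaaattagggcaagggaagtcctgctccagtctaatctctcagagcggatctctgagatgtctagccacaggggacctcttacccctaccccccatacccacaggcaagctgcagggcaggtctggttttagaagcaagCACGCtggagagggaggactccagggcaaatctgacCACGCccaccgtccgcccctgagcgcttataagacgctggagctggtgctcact
Bnip3 at chr7:138909507-138909756 (reverse strand): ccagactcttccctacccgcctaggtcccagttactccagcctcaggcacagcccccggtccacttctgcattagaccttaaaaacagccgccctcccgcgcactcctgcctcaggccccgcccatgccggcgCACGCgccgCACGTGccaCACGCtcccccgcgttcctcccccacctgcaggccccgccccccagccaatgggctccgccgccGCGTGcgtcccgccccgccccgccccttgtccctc
The Egln3 window held 1 match, starting 229 bases before the start site. The Adm window held 2, at 90 and 54 bases before it. In the Bnip3 window there were 4, of which 3 lay close together at 117, 108 and 99 bases before the start and 1 at 35 bases. The Hif1a and Egln1 windows held 2 each. Of the Vegfa windows, that at chr17:46025164-46025413 held 2 and that at chr17:46032378-46032627 held 0. Vegfa is on the reverse strand, so the window with matches lies downstream of the other annotated start. Either core was present in 38.6% of all 32851 windows of this length, and at least 4 matches in 1.49%, so single matches were common and 4 were rare among these windows. A match of letters is not a measured binding site.

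Genotype was compared first in CD101pos cells after zymosan, where the members split into genes higher and genes lower in CGD. Egln3 and Adm rose, Bnip3 and Ndrg1 fell, and Hif1a, Egln1 and Vegfa did not pass the test. Thus 4 of 7 members were called by edgeR's quasi-likelihood test (adjusted p under 0.05), against 5.30% of all genes tested.

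**Figure D1:**
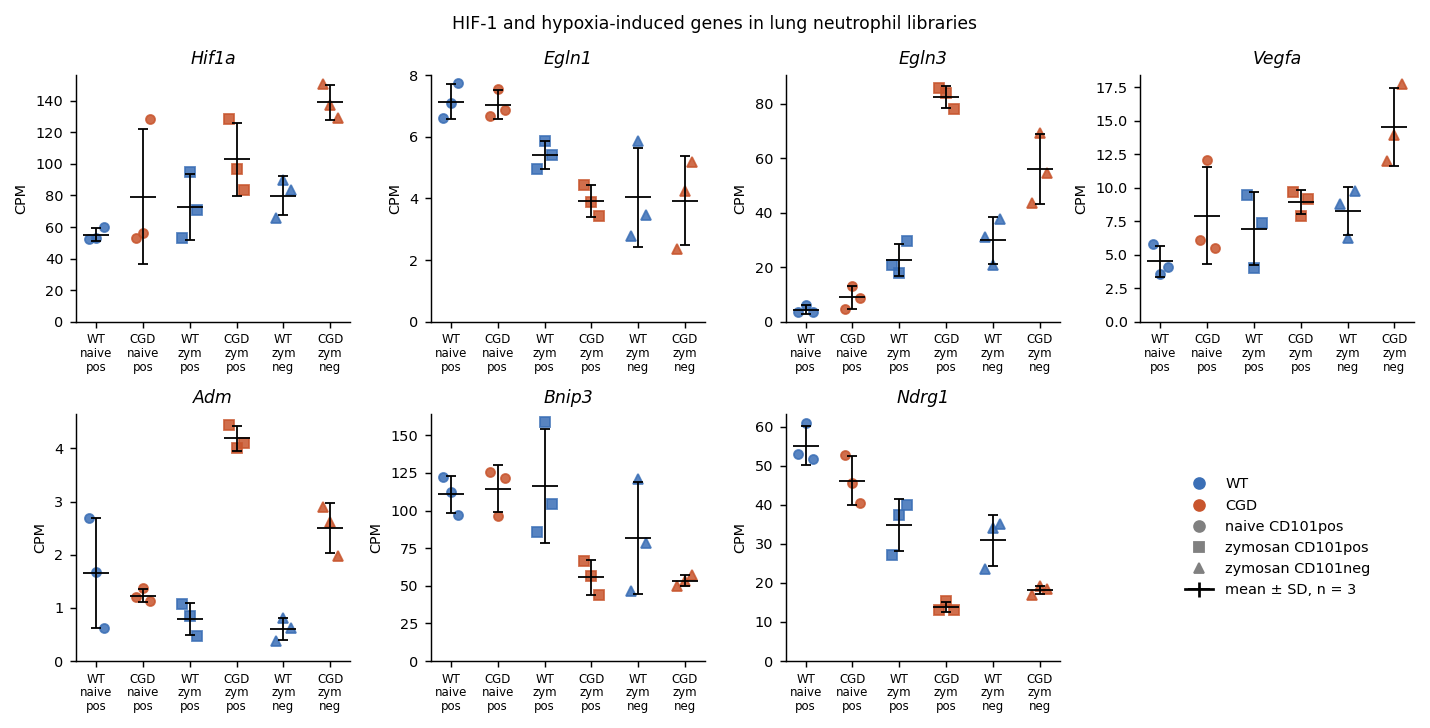
Scaled read counts (CPM) of the 7 genes in each library, by group (WT blue, CGD orange; pos and neg are CD101pos and CD101neg, zym is zymosan), with the mean and SD of 3 libraries in black. Egln3 and Adm are highest, and Ndrg1 lowest, in CGD zymosan CD101pos cells.

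Egln3 encodes the prolyl hydroxylase that is itself among the genes most readily raised by HIF-1. In CD101pos cells after zymosan its 3 WT libraries stood at 20.7, 17.9 and 29.4 CPM and its 3 CGD libraries at 85.6, 83.9 and 78.1 CPM. The CGD libraries lay close together and far above every WT library. The rise was 3.64-fold (log2 fold change 1.86 ± 0.33 (SE), edgeR adjusted p = 0.00287).

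Adm encodes adrenomedullin, a secreted peptide that widens vessels and tightens the endothelial barrier. It was the member with the fewest reads, 26 to 294 per library. Its WT CD101pos libraries after zymosan stood at 1.06, 0.840 and 0.470 CPM and its CGD libraries at 4.45, 4.01 and 4.11 CPM. The groups did not overlap, and the rise was 5.27-fold (2.40 ± 0.43 on the log2 scale, edgeR adjusted p = 0.00297).

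Ndrg1 encodes a cytoplasmic protein induced by hypoxia and by differentiation in many cell types. It stood at 27.2, 37.3 and 39.9 CPM in WT and at 13.2, 15.4 and 12.9 CPM in CGD CD101pos cells. Every CGD library was below every WT library, and the fall was 2.51-fold (log2 fold change -1.33 ± 0.19, edgeR adjusted p = 0.000673). Bnip3 encodes an outer mitochondrial membrane protein that recruits the autophagy machinery to mitochondria. Its WT libraries were uneven, at 86.0, 159 and 104 CPM, and its CGD libraries stood at 66.2, 56.8 and 43.6 CPM. The groups did not overlap, and the log2 fold change was -1.07 ± 0.28 (edgeR adjusted p = 0.031). This call was lost without WT replicate 2, the highest library (-0.77, adjusted p = 0.191), without WT replicate 3 (0.0667), and without CGD replicate 2 (0.114) or 3 (0.141).

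The other 3 members gave intervals that include 0 in CD101pos cells. Hif1a stood at 53.3, 95.0 and 70.6 CPM in WT and 129, 96.7 and 83.3 CPM in CGD, with overlapping groups and a log2 fold change of 0.50 (95% interval -0.10 to 1.09). Vegfa, which encodes the main vascular endothelial growth factor, stood at 9.47, 4.01 and 7.36 CPM in WT and 9.64, 7.90 and 9.19 CPM in CGD. Its log2 fold change was 0.36 (-0.31 to 1.03). Egln1, the hydroxylase that sets basal HIF-1 alpha turnover in most cells, stood at 4.97, 5.86 and 5.40 CPM in WT and 4.45, 3.89 and 3.42 CPM in CGD. The Egln1 groups did not overlap, but the log2 fold change of -0.47 did not pass the test (edgeR adjusted p = 0.415).

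Some alveolar macrophage markers differed in the same comparison. The sum of the 10 markers lay at 121 to 257 CPM in WT and 249 to 414 CPM in CGD CD101pos libraries after zymosan. Of the 10, 3 were called higher and 0 lower, and none was at 0 CPM in either group. The markers did not all move together. Siglecf had a lower mean in CGD, 41.3 ± 7.00 CPM against 87.3 ± 35.3 CPM in WT, and was not called. Of 11 monocyte and interstitial macrophage markers 4 were called higher and 1 lower, and 5 of 7 B cell markers were lower. The part of these cells in the member results was not tested. In bulk libraries, fewer cells that express a gene and less RNA of it per cell cannot be told apart.

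In CD101neg cells after zymosan, Adm again rose and Ndrg1 again fell in CGD. These 2 of 7 members were called, against 12.9% of all genes tested. Adm stood at 0.380, 0.804 and 0.619 CPM in WT and at 2.90, 2.62 and 1.97 CPM in CGD. The lowest CGD library was above the highest WT library, and the rise was 4.18-fold (log2 fold change 2.06 ± 0.43, edgeR adjusted p = 0.00413). Ndrg1 stood at 23.4, 34.1 and 35.1 CPM in WT and at 16.9, 19.1 and 18.4 CPM in CGD. Its groups did not overlap either, and the log2 fold change was -0.77 ± 0.19 (edgeR adjusted p = 0.0125). Without WT replicate 3 the Ndrg1 call was lost (-0.67, edgeR adjusted p = 0.0556), as it was when only the groups compared were fitted (0.0839).

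Hif1a, Egln3 and Vegfa had positive log2 fold changes in CGD CD101neg cells, yet none passed the threshold over all genes. At an unadjusted p under 0.05 there were 6 of 7 members and 4680 of all 16575 genes tested. Hif1a stood at 65.8, 89.6 and 83.6 CPM in WT and 151, 137 and 129 CPM in CGD, a log2 fold change of 0.80 (95% interval 0.20 to 1.4, edgeR adjusted p = 0.0727). Egln3 stood at 31.1, 20.7 and 37.8 CPM in WT and 43.7, 69.2 and 54.6 CPM in CGD, a log2 fold change of 0.90 (0.23 to 1.58, edgeR adjusted p = 0.0702). Vegfa stood at 8.81, 6.28 and 9.71 CPM in WT and 12.0, 13.9 and 17.7 CPM in CGD, a log2 fold change of 0.82 (0.14 to 1.49, edgeR adjusted p = 0.102). DESeq2 called Hif1a (adjusted p = 0.0436) and Egln3 (0.0354) here but not Vegfa. Bnip3 ranged from 46.8 to 121 CPM in WT, an interval that takes in all 3 CGD libraries (49.6, 53.4 and 57.2 CPM). Its log2 fold change was -0.62 (edgeR adjusted p = 0.151). Scaled by library size only, which moved the median of all genes to -0.57, Bnip3 was called lower (-1.04, adjusted p = 0.0037). WT replicate 1, the lowest Bnip3 library of its group, also had the lowest neutrophil identity sum. Without it Bnip3 was called lower in CGD (-0.90, adjusted p = 0.0355). Egln1 stood at 2.79, 5.85 and 3.46 CPM in WT and 2.36, 4.23 and 5.19 CPM in CGD, with a log2 fold change of -0.03 (-0.62 to 0.55).

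Macrophage markers ran the other way in CD101neg cells. Of the alveolar macrophage markers 6 of 10 were called lower in CGD, although their sums overlapped (124 to 231 CPM in WT and 129 to 218 CPM in CGD). Of the monocyte and interstitial macrophage markers 9 of 11 were lower, with sums of 1015 to 1155 CPM in WT and 713 to 964 CPM in CGD. No marker of either list was at 0 in either group. B cell markers were lower in CGD here too, 6 of 7, with sums of 116 to 145 CPM in WT and 26.4 to 43.1 CPM in CGD. The part of these cells in the member results was not tested.

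**Figure D2:**
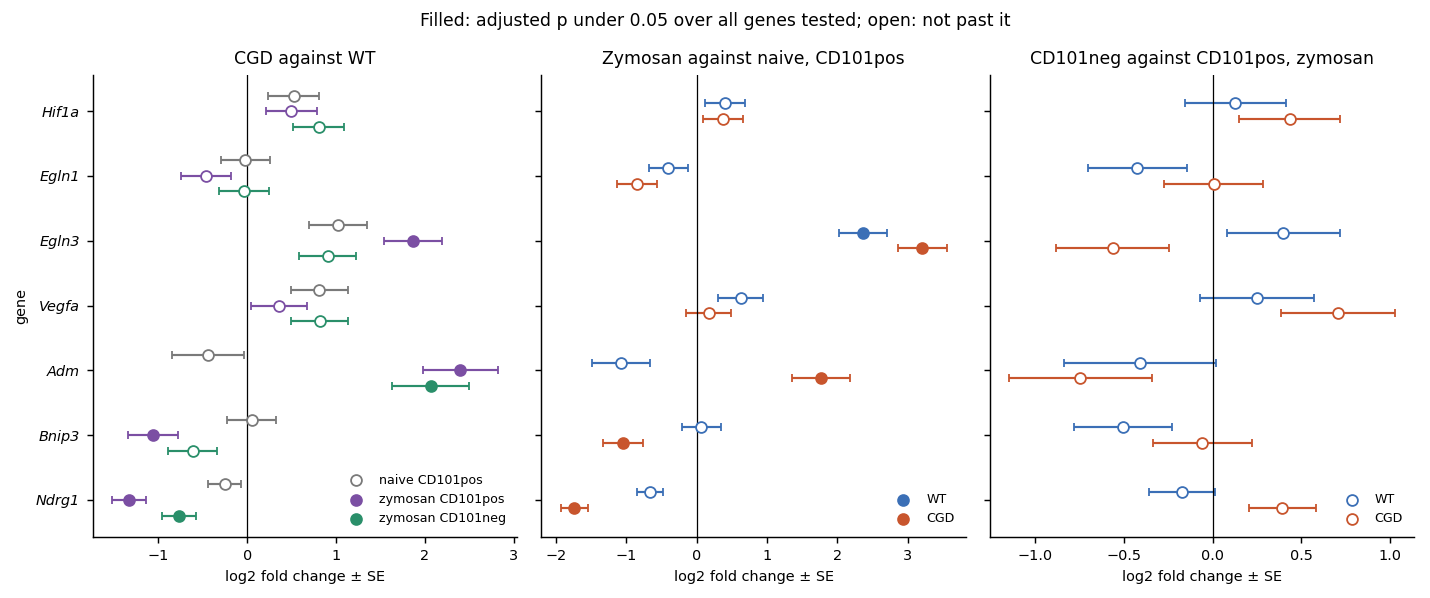
Log2 fold changes with SE of the 7 genes for genotype, zymosan and CD101 subset, filled where the edgeR adjusted p was under 0.05. Adm and Ndrg1 are filled in both zymosan settings of the genotype panel, no gene is filled among naive cells, and none is filled in the subset panel.

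Among naive CD101pos cells, 0 of 7 members were called by edgeR, against 0.127% of all genes tested, and DESeq2 also called 0. At an unadjusted p under 0.05 there were 2, Egln3 and Vegfa, and 1147 of all 16575 genes tested. Egln3 stood at 3.55, 6.24 and 3.40 CPM in WT and 4.80, 13.2 and 8.82 CPM in CGD, with overlapping groups and a log2 fold change of 1.02 (95% interval 0.33 to 1.70, edgeR adjusted p = 0.44). Vegfa stood at 5.83, 3.59 and 4.07 CPM in WT and 6.09, 12.1 and 5.53 CPM in CGD (edgeR adjusted p = 0.629). Hif1a lay at 52.4, 53.3 and 60.0 CPM in WT, while CGD replicate 3 stood at 128 CPM beside 53.1 and 56.1 CPM in the other two. The log2 fold change of 0.52 became -0.01 without that library, which also had the raised neutrophil identity sum. Adm ranged from 0.622 to 2.69 CPM in WT and from 1.12 to 1.37 CPM in CGD. Egln1 (6.59 to 7.75 CPM over both genotypes), Bnip3 (96.5 to 125 CPM) and Ndrg1 (40.4 to 60.8 CPM) had overlapping genotypes and intervals that include 0.

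Zymosan was compared with no treatment in CD101pos cells of each genotype, with sex and age differing as stated. Egln3 had the largest change of the 7 in both. In WT cells it rose from 4.40 ± 1.60 to 22.7 ± 6.02 CPM (SD, n = 3), a 5.14-fold rise (log2 fold change 2.36 ± 0.34, edgeR adjusted p = 0.000464). It was the only member called in WT, against 3.79% of all genes tested. Ndrg1 narrowly missed the threshold in WT, at 55.1 ± 4.99 CPM naive and 34.8 ± 6.73 CPM after zymosan, without overlap (log2 fold change -0.66, edgeR adjusted p = 0.0558). With DESeq2 it passed (adjusted p = 0.0279). In WT cells Hif1a (0.40), Vegfa (0.63) and Bnip3 (0.07) had positive log2 fold changes, and Egln1 (-0.40) and Adm (-1.08) negative ones, none of which was called.

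In CGD cells 4 of 7 members were called, against 12.8% of all genes tested. Egln3 rose 9.24-fold, from 8.93 ± 4.19 to 82.5 ± 3.96 CPM (log2 fold change 3.21 ± 0.35, edgeR adjusted p = 7.13e-06). Adm rose 3.40-fold, from 1.23 ± 0.126 to 4.19 ± 0.229 CPM (1.76 ± 0.41, adjusted p = 0.00761). Ndrg1 fell 3.34-fold, from 46.2 ± 6.15 to 13.8 ± 1.35 CPM (-1.74 ± 0.19, adjusted p = 1.02e-05). Bnip3 fell 2.06-fold, from 115 ± 15.7 to 55.5 ± 11.4 CPM (-1.04 ± 0.28, adjusted p = 0.0184). The Bnip3 call was lost without CGD naive replicate 1 (adjusted p = 0.0663) or without CGD zymosan CD101pos replicate 2 (0.0642) or 3 (0.0888). Egln1 was lower in every CGD zymosan library (3.42 to 4.45 CPM) than in every CGD naive library (6.68 to 7.56 CPM), with a log2 fold change of -0.85 that did not pass (edgeR adjusted p = 0.0536). It did pass with DESeq2 (0.0261), with library size only (0.0129), with only the groups compared (0.0318) and with the replicate block (0.0481), but not when a library was left out (0.0694 to 0.166). The replicate block joins numbers that did not pair between these groups (correlations of -0.110, 0.018 and -0.121). Hif1a had a log2 fold change of 0.38 in CGD (edgeR adjusted p = 0.438), which became 0.89 and was called (0.0254) without naive replicate 3. Vegfa had a log2 fold change of 0.17 (-0.49 to 0.84).

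Alveolar macrophage markers were called higher after zymosan in 7 of 10 cases in WT and 6 of 10 in CGD. Their sums in naive cells were 80.0 to 88.0 CPM in WT and 84.4 to 176 CPM in CGD. Of 11 monocyte and interstitial macrophage markers 4 were higher in WT, and in CGD 5 were higher and 2 lower. Of 8 epithelial markers 3 were higher in CGD and 0 in WT. Of 7 B cell markers 6 were lower in each genotype. The part of these in the member results was not tested.

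The interaction of genotype with zymosan, the zymosan difference in CGD minus that in WT, was called for Adm alone, against 0.320% of all genes tested. Adm went from 1.66 ± 1.03 to 0.791 ± 0.30 CPM in WT and from 1.23 to 4.19 CPM in CGD. The interaction was 2.84 ± 0.59 on the log2 scale (edgeR adjusted p = 0.047). The call lay near the threshold and was lost when any of 10 of the 12 libraries was left out (2.31 to 2.92, adjusted p = 0.0778 to 0.154). Over all 12 cases the interaction lay between 2.31 and 3.22. The naive WT libraries of Adm, at 2.69, 1.67 and 0.622 CPM, were the most spread. Ndrg1 (-1.07 ± 0.27, edgeR adjusted p = 0.104) and Bnip3 (-1.11 ± 0.39, adjusted p = 0.302) did not pass in edgeR. DESeq2 did call the Ndrg1 interaction (-1.10, adjusted p = 0.0135). The Egln3 interaction was 0.85 (95% interval -0.11 to 1.80).

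CD101neg and CD101pos cells of the same genotype were compared after zymosan. In WT, 0 of 7 members were called by edgeR, against 0.440% of all genes tested, with 0 at an unadjusted p under 0.05 and 0 by DESeq2. Of all 16575 genes tested 1698 had an unadjusted p under 0.05. The replicate numbers of the WT subsets pair the libraries, and with that replicate block Bnip3 was called lower in CD101neg cells (log2 fold change -0.57, edgeR adjusted p = 0.0212), while the calls over all genes went from 73 to 1741. Bnip3 was lower in the CD101neg library of each number, at 46.8 against 86.0 CPM, 121 against 159 CPM and 78.2 against 104 CPM. In CGD, 0 of 7 members were called, against 7.35% of all genes tested, with 1 at an unadjusted p under 0.05 (Vegfa) and 0 by DESeq2. Of all 16575 genes tested 3795 had an unadjusted p under 0.05 here. Hif1a, Vegfa and Ndrg1 had higher means, and Egln3 and Adm lower means, in CGD CD101neg than in CGD CD101pos cells. Their log2 fold changes were 0.43, 0.71, 0.39, -0.56 and -0.74 in that order, with edgeR adjusted p from 0.191 to 0.391. In the same comparison 8 of 10 alveolar macrophage, 7 of 11 monocyte and interstitial macrophage, 3 of 8 epithelial and 3 of 7 dendritic cell markers were called lower in CD101neg cells, and none of these lists had a gene called higher. The alveolar macrophage sum was 129 to 218 CPM in CD101neg and 249 to 414 CPM in CD101pos libraries. The dendritic cell sum was 4.63 to 5.63 CPM against 13.9 to 19.0 CPM. The part of these in the member results was not tested. The block within genotype called Hif1a, Egln3 and Vegfa between the CGD subsets (adjusted p = 0.0268, 0.00627 and 0.0113), although 1 of the 3 CGD numbers showed almost no correlation (0.025).

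For the interaction of genotype with subset, 0 of 7 members were called, against 0.851% of all genes tested. DESeq2 also called 0. At an unadjusted p under 0.05 there were 2 members and 2380 of all 16575 genes tested. With the block within genotype Egln3 was called (-0.99, adjusted p = 0.00526). The 2 were Egln3 (-0.96, edgeR adjusted p = 0.342), whose genotype difference was larger in CD101pos cells, and Ndrg1 (0.56, adjusted p = 0.346).

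Across the 6 groups, Egln3 increased in the order WT naive, CGD naive, WT zymosan CD101pos, WT zymosan CD101neg, CGD zymosan CD101neg and CGD zymosan CD101pos (means of 4.40, 8.93, 22.7, 29.8, 55.9 and 82.5 CPM). Of these neighbours, the naive groups overlapped, as did the WT zymosan groups, and the libraries of the other neighbouring groups did not overlap. Ndrg1 had its group means in the reverse order, from 55.1 CPM in WT naive to 13.8 CPM in CGD zymosan CD101pos cells. Over the 18 libraries the Pearson r of log2 CPM was -0.91 between Egln3 and Ndrg1, -0.75 between Egln3 and Bnip3 and 0.84 between Bnip3 and Ndrg1. These are descriptions of libraries that share groups, so a difference between groups alone gives such values. Adm followed the others less closely, with r between -0.57 (Ndrg1) and 0.39 (Hif1a).

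**Figure D3:**
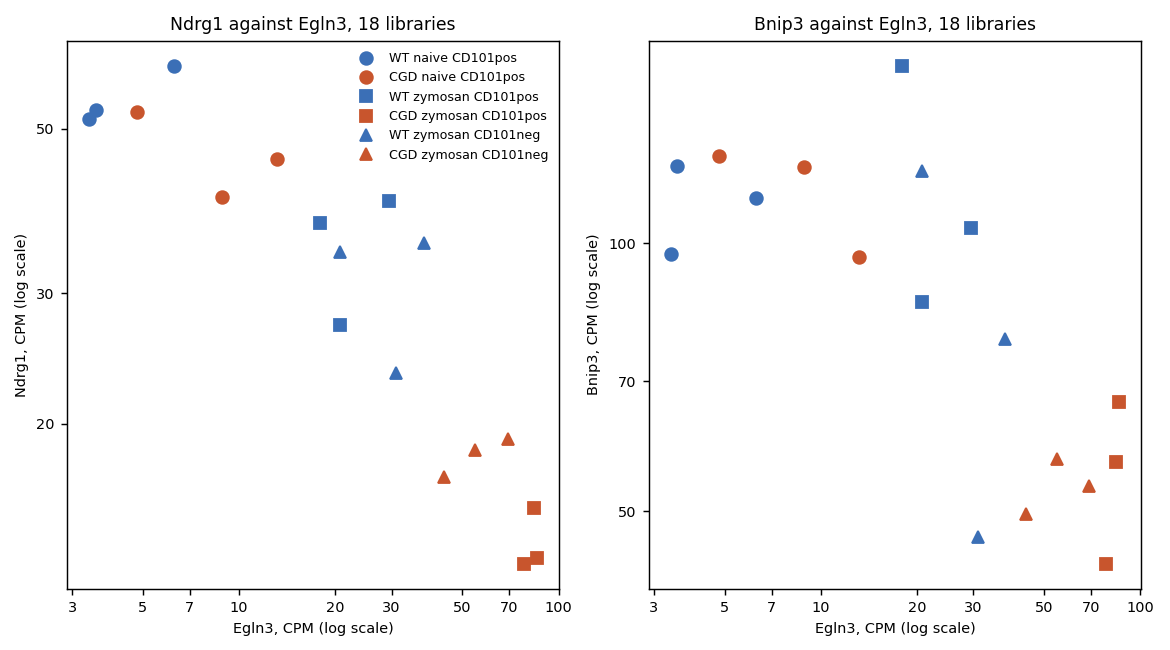
Ndrg1 (left) and Bnip3 (right) against Egln3 in CPM on log axes, 1 point per library, WT blue and CGD orange, with circles for naive CD101pos, squares for zymosan CD101pos and triangles for zymosan CD101neg. The CGD zymosan libraries lie at high Egln3 and low Ndrg1, and the WT zymosan libraries between them and the naive ones.

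Genes with the most similar pattern were sought by the Pearson r of log2 CPM over the same 18 libraries. Candidates had a mean of at least 10 CPM, and predicted gene models were left out. The highest were App (0.951) for Hif1a, Hsh2d (0.879) for Egln1, Cish (0.966), Fcgr2b (0.960) and Rptor (0.954) for Egln3, Matk (0.939) for Vegfa, Slc35a4 (0.842) for Adm, Mrpl10 (0.960) for Bnip3 and Mbp (0.967) for Ndrg1. Adm, Egln1 and Vegfa had means below 10 CPM and could not be chosen. Of Hif1a, Egln3, Bnip3 and Ndrg1, none was the closest gene to another member.

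The wider pathway was read from lists of textbook roles. Of 20 regulators and partners of HIF-1 alpha, 19 were tested. In CD101pos cells after zymosan 1 was lower in CGD, Ubxn7, which encodes an adaptor of the p97 segregase, at 24.1 ± 2.47 CPM in WT and 12.4 ± 1.28 CPM in CGD (SD, n = 3; log2 fold change -0.97, edgeR adjusted p = 0.00236). This 1 call was 5.26% of the list, near the 5.30% of all genes tested. In CD101neg cells 0 were called, against 12.9% of all genes, with 0 by DESeq2. At an unadjusted p under 0.05 there were 5 of 19 here and 4680 of all 16575 genes. Arnt, the beta subunit, rose with zymosan in CGD cells from 46.4 ± 8.99 to 87.0 ± 2.96 CPM (0.90, edgeR adjusted p = 0.00483), where Ubxn7 fell. These 2 zymosan calls were 10.5% of the list, against 12.8% of all genes. Between the CGD subsets Hif1an, the asparaginyl hydroxylase that blocks HIF-1 activity, was higher and Usp20, the gene of a deubiquitinase, lower in CD101neg cells. These were also 10.5% of the list, against 7.35% of all genes. The Hif1an call was lost without any library other than CD101neg replicate 1 (adjusted p = 0.0864 to 0.164), and the Usp20 call without any of the 6 libraries (0.0509 to 0.167). The Ubxn7 fall with zymosan was lost without CGD naive replicate 1 (0.074) or CGD zymosan replicate 3 (0.064). The median log2 fold change of the list lay at -0.03 in CD101pos and -0.08 in CD101neg cells for genotype, beside 0.02 and -0.08 for all genes tested.

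Other hypoxia-induced genes outside glycolysis numbered 32, of which 31 were tested. With genotype, 4 rose and 0 fell in CD101pos cells (12.9% of those tested, against 5.30% of all genes). In CD101neg cells 4 rose and 1 fell, and this 16.1% was near the 12.9% of all genes. Hilpda, which encodes a lipid droplet protein that inhibits lipolysis, rose in both, from 219 ± 47.3 to 521 ± 149 CPM in CD101pos cells (log2 fold change 1.25, edgeR adjusted p = 0.0102) and from 285 ± 27.6 to 928 ± 12.8 CPM in CD101neg cells (1.70, adjusted p = 0.00055). Edn1, the gene of the vasoconstrictor endothelin-1, rose 3.90-fold in CD101pos and 9.60-fold in CD101neg cells, where it reached 58.2 to 78.5 CPM in CGD against 3.60 to 10.05 CPM in WT. Plaur, the urokinase receptor, rose 1.89-fold and 2.23-fold. In CD101pos cells the Edn1 call was lost without WT replicate 2 or 3 or CGD replicate 2 or 3 (adjusted p = 0.0539 to 0.111), with library size only (0.0674) and without the low-count filter (0.101). There the Hilpda call was lost without WT replicate 3 (0.0675) or CGD replicate 1 (0.0554). The Plaur call was lost with only the groups compared (0.0696). In CD101neg cells all 3 calls held with each library left out. Jmjd6, named here after its value was seen, rose in CD101neg cells (0.79, adjusted p = 0.0131), a call lost without WT replicate 1 (0.0636) or CGD replicate 1 (0.0644).

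Car9, the membrane carbonic anhydrase often used as a hypoxia marker, went the other way in CD101neg cells, at very low levels. It stood at 0.268 to 0.526 CPM in WT CD101neg cells, and in CGD 2 of the 3 libraries were at 0 and the highest at 0.0454 CPM (edgeR adjusted p = 0.00911). In CD101pos cells after zymosan Car9 had means of 0.210 ± 0.166 CPM in WT and 0.493 ± 0.176 CPM in CGD, and was not called. It was lower in CGD CD101neg than in CGD CD101pos cells (log2 fold change -4.85, edgeR adjusted p = 0.0101). The interaction of genotype with subset was -5.64 (adjusted p = 0.0458). Left-out libraries cost the subset call in 1 of 6 cases (0.0593) and the interaction call in 9 of 12 (up to 0.132). The median log2 fold change of the list was 0.17 in CD101pos and 0.14 in CD101neg cells, beside 0.02 and -0.08 for all genes tested.

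With zymosan, 5 of these 31 genes rose and 0 fell in WT, and 10 rose and 1 fell in CGD. Of all genes tested 3.79% were called in WT and 12.8% in CGD. The interaction of genotype with zymosan was called for 0 of the 31, against 0.320% of all genes. In WT the 4 with the lowest p were Hilpda (log2 fold change 1.68), Ddit4, an inhibitor of mTORC1 (1.4), Tfrc, the transferrin receptor (1.5), and Bhlhe40, a transcriptional repressor (2.77), and the fifth was Nos2, the inducible nitric oxide synthase. Of these WT calls only that of Hilpda held with each library left out. Naive replicate 2 was needed for the other 4 (adjusted p = 0.0517 to 0.08 without it). Naive replicate 3 was needed for Tfrc (0.0554), Bhlhe40 (0.0711) and Nos2 (0.0745), naive replicate 1 for Nos2 (0.0747) and zymosan replicate 1 for Bhlhe40 (0.0568). In CGD those that rose included Hilpda (2.11), Plaur (0.97) and Angptl4, an inhibitor of lipoprotein lipase (2.01). The gene that fell was Mxi1, a MYC antagonist (-1.31, edgeR adjusted p = 0.00291). The median of the list was 0.18 in WT and 0.39 in CGD, beside -0.03 and 0.00 for all genes. In naive cells 0 of the 31 differed with genotype by edgeR or DESeq2, and 3 had an unadjusted p under 0.05. Of all genes tested 0.127% were called by edgeR there, and 1147 of 16575 had an unadjusted p under 0.05.

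**Figure D4:**
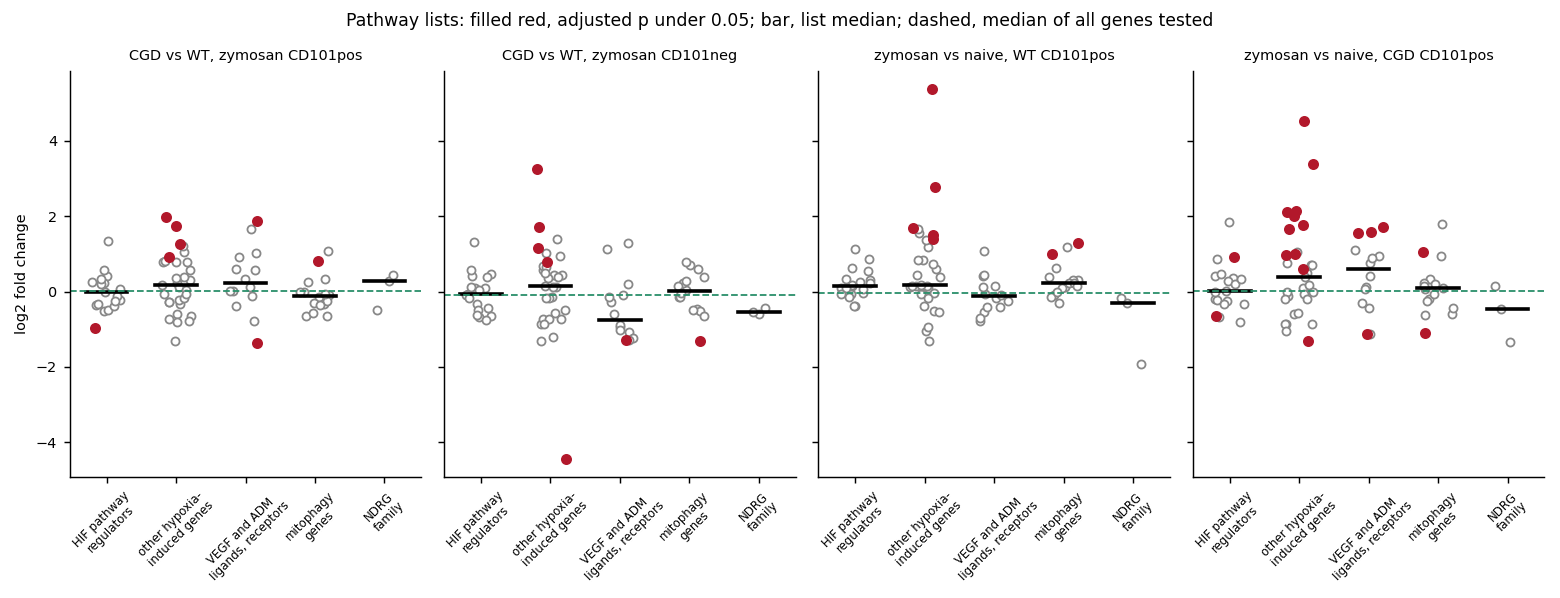
Log2 fold changes of the genes of 5 lists in 4 comparisons, filled red where the edgeR adjusted p was under 0.05, with the median of each list as a bar and that of all genes tested as a dashed line. Filled points of the hypoxia-induced list lie above 0 except Car9 in CD101neg cells and Mxi1 with zymosan in CGD cells.

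Of 15 other ligands and receptors of the VEGF and adrenomedullin systems, 14 were tested, and 2 were called with genotype in CD101pos and 1 in CD101neg cells. These were 14.3% and 7.14% of the list, against 5.30% and 12.9% of all genes. In CD101pos cells Pgf, placental growth factor, rose in CGD from 1.57 ± 0.711 to 5.81 ± 2.27 CPM (log2 fold change 1.88, edgeR adjusted p = 0.0103), and Ramp1, a co-receptor of the calcitonin receptor family, fell from 37.9 ± 6.71 to 14.8 ± 8.21 CPM (-1.36, adjusted p = 0.0361). The Pgf call was lost without WT replicate 2 (0.0559), and the Ramp1 call without any library other than CGD replicate 1 (0.062 to 0.19) and without the low-count filter (0.0836). In CD101neg cells Nrp1, a co-receptor for VEGF, fell from 50.7 ± 11.7 to 20.9 ± 0.970 CPM (-1.28, adjusted p = 0.0111), and it was also lower in CGD CD101neg than in CGD CD101pos cells. The latter call was lost without any library other than CGD CD101pos replicate 1 (adjusted p = 0.0699 to 0.171). With zymosan in CGD, Pgf, Nrp2 and Ackr3 rose and Ramp1 fell, 28.6% of the list against 12.8% of all genes. In WT 0 of 14 were called, against 3.79% of all genes (1 at an unadjusted p under 0.05, 0 by DESeq2). The interaction of genotype with zymosan was called for 0 of 14, against 0.320% of all genes. There 4 had an unadjusted p under 0.05, and DESeq2 called 1. Of the CGD zymosan calls, that of Pgf held with each library left out. The Nrp2 call was lost without naive replicate 1 (adjusted p = 0.0606) or 3 (0.0862) or zymosan replicate 3 (0.15), and those of Ackr3 and Ramp1 without any library other than zymosan replicate 1 (0.0626 to 0.2). Kdr, Calcrl and Ramp2 of this list are also in the list of endothelial markers, whose 8 members summed to 87.6 to 341 CPM over all libraries.

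Of 17 other genes of mitophagy, the removal of mitochondria by autophagy, 16 were tested. With genotype 6.25% of these were called in CD101pos and in CD101neg cells, against 5.30% and 12.9% of all genes. Between subsets 6.25% were called in each genotype, against 0.440% of all genes in WT and 7.35% in CGD. With zymosan 12.5% were called in each genotype, against 3.79% of all genes in WT and 12.8% in CGD. The Bnip3 homologue Bnip3l had a log2 fold change with genotype of -0.65 in CD101pos (edgeR adjusted p = 0.0942) and -0.14 in CD101neg cells, so neither passed. Gabarapl1, of the family that coats autophagosomes, fell in CGD CD101neg cells from 33.9 ± 6.41 to 13.6 ± 1.98 CPM (-1.32, adjusted p = 0.00171). Optn, an autophagy receptor, rose in CGD CD101pos cells from 25.4 ± 3.64 to 44.6 ± 2.93 CPM (0.81, adjusted p = 0.0224) and with zymosan in both genotypes. Its genotype call was lost without WT replicate 2 or 3 or CGD replicate 2 or 3 (adjusted p = 0.052 to 0.117), and its WT zymosan call without naive replicate 2 (0.0672). Sqstm1, the receptor p62, was higher in CD101neg than in CD101pos cells in both genotypes (1.73 in WT and 1.16 in CGD). The WT call was lost without CD101pos replicate 2 or 3 or CD101neg replicate 3 (adjusted p = 0.0709 to 0.136), and the CGD call without any library other than CD101neg replicate 1 (0.0613 to 0.0981). With zymosan Fundc1, a mitochondrial receptor, rose in WT and Ulk1, the kinase that starts autophagy, fell in CGD. Each call was lost in 5 of 6 cases of a library left out, for Fundc1 all but zymosan replicate 1 (adjusted p = 0.0682 to 0.214) and for Ulk1 all but naive replicate 2 (0.0581 to 0.172). The members of the list thus moved in both directions. The Ndrg1 relatives Ndrg2, Ndrg3 and Ndrg4 were called in 0 of the 9 comparisons by edgeR, with at most 1 of the 3 at an unadjusted p under 0.05 in any of them, and DESeq2 called 1 with zymosan in WT.

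**Figure D5:**
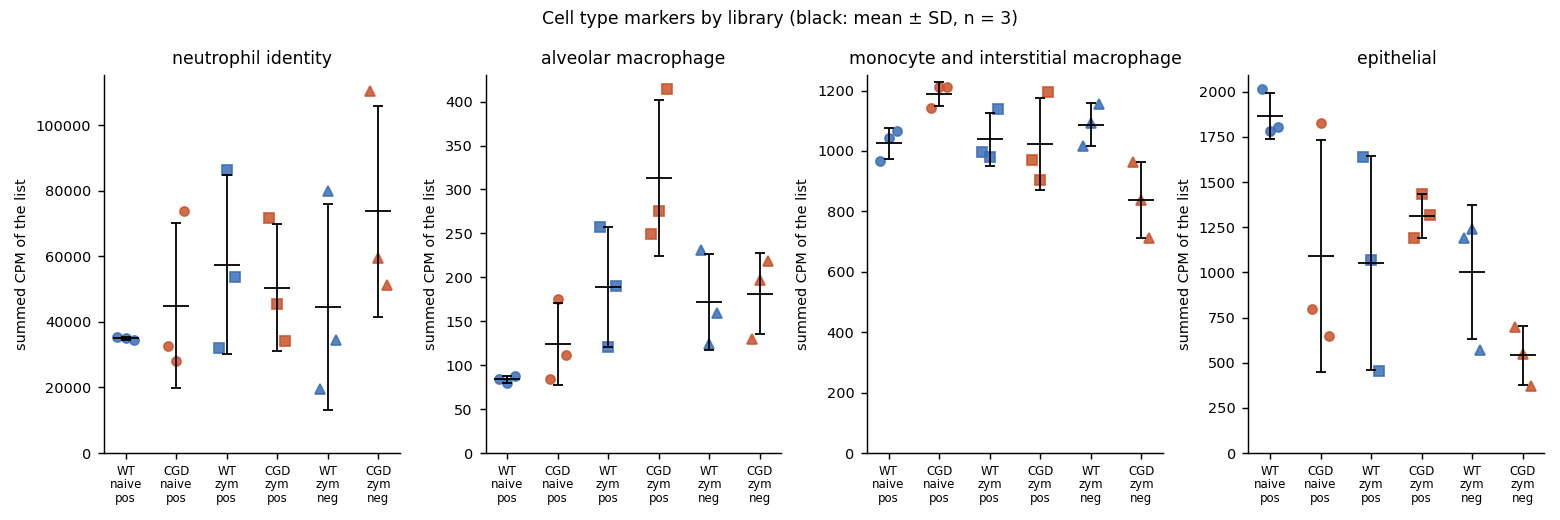
Summed CPM of 4 lists of cell type markers by library and group, with mean and SD of 3 libraries in black. The mean alveolar macrophage sum is highest in CGD zymosan CD101pos cells, and neutrophil sums vary within groups.

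Other cell types left traces in all groups. The 8 epithelial markers summed to 373 to 2014 CPM, with 373, 549 and 700 CPM in the CGD CD101neg libraries and 453 CPM in a WT zymosan CD101pos library, and none of the 8 was called with genotype. The 7 fibroblast markers summed to 39.6 to 144 CPM, the 9 markers of T and NK cells to 8.57 to 20.8 CPM, the 7 dendritic cell markers to 4.63 to 28.4 CPM and the 4 eosinophil markers to 1.67 to 9.61 CPM. These lists were called with genotype in at most 3 genes per comparison, all lower in CGD. Their part in the member results was not tested.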

How the data were processed

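RNA was sequenced from 18 libraries of sorted lung neutrophils in 6 groups of 3. The deposited table holds unnormalised counts of reads in each gene, for which the submitters' processing notes name featureCounts 1.4.6-p5, Subread and STAR 2.5.1a. The authors made them from total RNA libraries of a SMARTer kit, per the labels' protocols. Neither the build nor the annotation nor the strand setting was given in the sources used here, and overlapping genes may therefore share reads. Of 40757 lines, 276 repeated the gene ID and counts of another line and were dropped. No sample column was left out, and no libraries were identical.

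Counts were fitted in edgeR 4.0.16 (R 4.3.3) with the robust quasi-likelihood test, with 1 model for the 18 libraries, TMM factors (0.702 to 1.24) and the filter filterByExpr by group (16575 genes kept). It had 12 residual degrees of freedom and a common biological coefficient of variation of 33.0%. Genes were called at a Benjamini-Hochberg adjusted p under 0.05 over all genes tested. CPM use the TMM factors. There were 7 pairwise comparisons and 2 interactions. Simulated counts of 16088 genes were used to check the CD101neg genotype contrast, where the test recovered 14% of 100 genes changed 2-fold and 58% of 100 changed 4-fold, with 0.00% false among its calls. These counts were drawn from the dispersions of the same model, with as many rises as falls and no pairing of libraries. The false share of the real contrast is therefore not measured by them.

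The members and lists were chosen with earlier results of these data known. All members were named in every comparison, and of each list up to 4 called genes with the lowest p, except that 1 gene is not reported here. Ero1a was matched to its older symbol Ero1l through RefSeq synonyms, and the B cell marker Ighd was not analysed here.

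Replicate numbers were checked by the correlation of same-numbered libraries' deviations from their group means. WT zymosan CD101pos and CD101neg cells paired (0.487, 0.425 and 0.312). CGD subsets did not pair for every number (0.236, 0.025 and 0.260), nor did the genotypes.

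Alternatives were RLE size factors, scaling by library size only, no low-count filter, DESeq2 1.42.0, only the groups compared, the replicate block and each library left out in turn. Intervals cover the spread between these libraries.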

Additional observations from a re-analysis of the deposited data

Results flagged for a closer look

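The zymosan change of Adm passed the test of a difference between the genotypes, though by a small margin. Between naive and zymosan CD101pos cells its log2 fold change was 1.76 in CGD and -1.08 in WT, and the test of the difference itself gave 2.84 on the log2 scale (edgeR's quasi-likelihood test, adjusted p = 0.047). The CGD zymosan libraries all lay above the CGD naive ones, while the WT groups overlapped. The read counts of Adm were the lowest of the 7 genes, between 26 and 294 per library, and the sexes and ages of naive and zymosan mice differed. The call was lost when any of 10 of the 12 libraries was left out (adjusted p = 0.0778 to 0.154), with library size only (0.0746) and with only the groups compared (0.0575).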

How the results depend on the processing

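Of 861 values of the 7 genes under the alternatives, 786 kept their direction and side of the threshold, 22 lost a call, 18 gained one and 35 turned direction, and none of those 35 was called in the main analysis. Depth limits Adm and Egln1 most, with as few as 26 and 96 reads. The number of members called differed in these cases. For genotype in CD101neg cells it was 4 with DESeq2 and 3 with library size only. It was 1 with only the groups compared, where Ndrg1 was lost, and 1 to 3 with a library left out (reported: 2). For genotype in CD101pos cells it was 3 with only the groups compared, where Bnip3 was lost (adjusted p = 0.0525), and 3 to 4 with a library left out (reported: 4). For zymosan in CGD it was 5 with library size only, DESeq2, the replicate block and only the groups compared, where Egln1 was gained, and 3 to 5 with a library left out (reported: 4). For zymosan in WT it was 2 with library size only, with DESeq2 and with the replicate block (reported: 1). For the genotype by zymosan interaction it was 0 with library size only, 0 with only the groups compared, 2 with DESeq2 and 0 to 1 with a library left out (reported: 1). With the replicate block within genotype, over zymosan libraries only, it was 1 for the WT subsets, 3 for the CGD subsets and 1 for the genotype by subset interaction (reported: 0 each). In CGD, whose numbers did not all pair, this is a hint only. Numbers of naive and zymosan CD101pos libraries did not pair, at 0.044, 0.017 and 0.131 in WT and -0.110, 0.018 and -0.121 in CGD. The block over all groups also called Ndrg1 with zymosan in WT (-0.67) and Egln1 with zymosan in CGD (-0.83), and it changed no other call of a member. The cause of these changes was not tested.

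Directions turned as follows. With library size only, the log2 fold change became -0.050 for Bnip3 and genotype in naive cells, -0.28 for Egln1 between CGD subsets, -0.27 for Bnip3 with zymosan in WT, -0.10 for Vegfa with zymosan in CGD, -0.13 for the Hif1a interaction with subset and 0.10 for the Hif1a interaction with zymosan. For Egln1 between CGD subsets it was -0.042 without the filter, -0.037 with the replicate block, -0.065 with the block within genotype and -0.010 with only the groups compared. Without the filter Egln1 and genotype in naive cells gave 0.011, and with the replicate block the Hif1a interaction with zymosan gave 0.036. With libraries left out in turn, ranges that crossed 0 for genotype in naive cells were -0.013 to 0.74 for Hif1a, -0.072 to 0.043 for Egln1, -0.82 to 0.087 for Adm and -0.033 to 0.16 for Bnip3. They were -0.29 to 0.33 for Egln1 and genotype in CD101neg cells, -0.22 to 0.25 for Bnip3 with zymosan in WT, -0.043 to 0.62 for Vegfa with zymosan in CGD and -0.27 to 0.49 for the Hif1a interaction with zymosan. Between subsets they were -0.056 to 0.36 for Hif1a and -0.026 to 0.54 for Vegfa in WT, and -0.25 to 0.22 for Egln1 and -0.21 to 0.037 for Bnip3 in CGD.

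Library size only shifted the median of all genes to -0.57 for genotype in CD101neg cells, -0.34 between CGD subsets, -0.33 and -0.24 with zymosan in WT and CGD, 0.13 between WT subsets and -0.45 in the interaction with subset. Relative to such shifts, no called direction of a member turned. Counts over all genes moved by over 1.5 times in some settings. For genotype in CD101neg cells 2139 became 3985 with library size only and 1062 with only the groups compared. For genotype in CD101pos cells 878 became 1405 with DESeq2 and 572 with only the groups compared, and in naive cells 21 became 9, 110 and 6 with library size only, DESeq2 and only the groups compared. Between WT subsets 73 became 140 without the filter, 329 with DESeq2, 0 with only the groups compared and 1741 with the block. Between CGD subsets 1218 became 2136 with DESeq2 and 3924 with the block, and with zymosan in WT 629 became 1222 with DESeq2. The interaction with subset went from 141 to 327 without the filter, 589 with DESeq2, 62 with only the groups compared and 2229 with the block, and that with zymosan from 53 to 13 with library size only, 119 without the filter and 261 with DESeq2. With a library left out the counts were 1164 to 1938 for genotype in CD101neg, 320 to 1125 in CD101pos and 2 to 64 in naive cells. They were 3 to 400 between WT and 321 to 1185 between CGD subsets, 263 to 560 with zymosan in WT and 1170 to 1891 in CGD, and 43 to 497 and 5 to 54 for the interactions with subset and with zymosan.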
